A study of Mus musculus with 4 samples.

Results

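tRNA-Glu, the tRNA that carries glutamate, is described here from small RNA of mouse bone marrow, the blood-forming tissue. Its members are the forward-strand rows of the coverage tables of the family Glu, 71 positions out of 1698 in 23 tRNA families. The family was chosen by name, with its high coverage known from earlier results of these data. The libraries come from C57BL/6 mice at postnatal day 8, with 2 libraries of Dnmt2-/- mice and 2 libraries of wild-type (WT) mice. Neither the Dnmt2 allele nor the number of animals behind a library is given in the sources used here. A p-value thus reflects no more than how far the libraries spread, in some fits pooled over families, and that spread may be technical. The tables hold tRNA coverage alone, and neither the Dnmt2 transcript nor markers of bone marrow were analysed here.

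Cells cut mature tRNAs into fragments, and a cut in the anticodon loop by angiogenin or a related ribonuclease gives a 5′ part and a 3′ part. 5′ fragments of tRNA-Glu are known as some of the most common tRNA fragments of mammalian tissues and serum. Dnmt2 is a methyltransferase that adds a methyl group to a cytosine in the anticodon loop of tRNA-Asp, tRNA-Gly and tRNA-Val, where it is known to protect these tRNAs from cutting. tRNA-Glu is not among these substrates in the mouse. The mouse annotation of RefSeq (GRCm38.p6) that was used here names 20 tRNA-Glu genes, 12 with the anticodon CTC and 8 with TTC. The tables pool the genes of the family, so the anticodons cannot be told apart, and no tRNA sequence was analysed here.

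A read adds 1 to every position it spans. Each deposited value is a whole multiple of 1 step per library, and this step is read here as 1 read. At its highest position tRNA-Glu held 43077 and 64659 reads in the Dnmt2-/- libraries of replicate number 1 and 2, and 97189 and 126946 reads in the WT libraries of number 1 and 2. The highest position was position 25 in all 4 libraries, counted from 1 at the first row, and it is called the peak below. Coverage on the reverse strand reached at most 4 reads in each Dnmt2-/- library, against 13 and 16 reads in the WT libraries of number 1 and 2. Over the 23 families the reads at the peaks summed to between 220277 and 423186 per library.

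**Figure D1:**
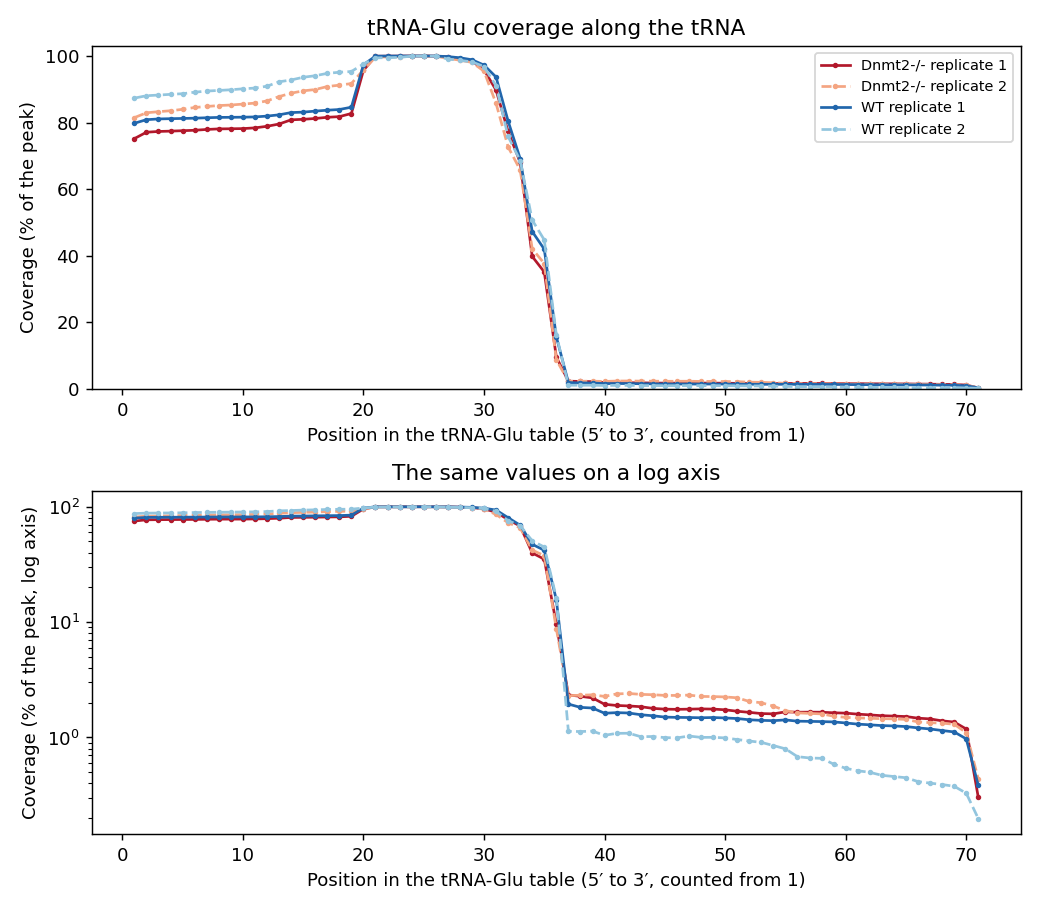
Coverage of tRNA-Glu at each of 71 positions as a percentage of the peak in each library, on a linear axis (top) and on a log axis (bottom), with 1 line per library (Dnmt2-/- red, WT blue). Coverage stepped up at positions 20 and 21, fell between positions 30 and 37 in all 4 libraries and stayed at or under 2.41% of the peak 3′ of position 37.

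Most tRNA-Glu reads began at the very first position. Coverage at position 1 was 75.2% and 81.5% of the peak in Dnmt2-/- replicates 1 and 2, and 79.8% and 87.3% in WT replicates 1 and 2. The Dnmt2-/- library was the lower one within each number, while the genotypes overlapped. The mean was 78.3% ± 4.45 in Dnmt2-/- and 83.6% ± 5.33 in WT (SD, n = 2 each). A comparison of 2 against 2 libraries by an exact two-sided permutation test cannot go below p = 0.33, so such single values are given without a test.

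A further set of reads began at positions 20 and 21. In the usual layout of a tRNA this stretch belongs to the D arm, the first stem-loop, though the sources used here do not tie the rows to the standard numbering. A rise in coverage from one position to the next counts the reads that start there minus those that end just before it, and so gives a net number of starts. Position 20 had the largest net gain after position 1, with 12.96% and 4.11% of the peak in Dnmt2-/- replicates 1 and 2, and 12.76% and 2.26% in WT replicates 1 and 2. The gain was thus high in both libraries of number 1 and low in both of number 2. At position 21, the next largest, it was 4.23% and 3.83% in the Dnmt2-/- libraries, against 2.57% and 1.84% in the WT libraries, with no overlap between genotypes. Position 2 followed on average over the libraries, though not in WT replicate 2 alone. Its gain was 1.91% and 1.45% in Dnmt2-/- and 1.07% and 0.722% in WT, again without overlap. How often gains of other families separate the genotypes was not computed.

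Positions 20 and 21 together gained 17.2% (95% interval 16.8 to 17.6) and 7.95% (7.74 to 8.16) of the peak in Dnmt2-/- replicates 1 and 2. In WT replicates 1 and 2 they gained 15.3% (15.1 to 15.6) and 4.10% (3.996 to 4.21). These binomial (Clopper-Pearson) intervals treat the net gain as a plain count of reads, though it is starts minus ends. They are thus approximate and describe counting error alone, because copies made by PCR were not told apart from separate molecules. The gain moved more with the replicate number than with the genotype, and the Dnmt2-/- to WT ratio was 1.12 in number 1 and 1.94 in number 2. The difference of the means, 2.85 percentage points, became −1.77 without Dnmt2-/- replicate 1 and −2.76 without WT replicate 2. It was 7.47 without Dnmt2-/- replicate 2 and 8.47 without WT replicate 1.

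Small net gains filled the stretch between these starts. Positions 3 to 19 together gained 5.62% and 8.78% of the peak in the Dnmt2-/- libraries of number 1 and 2, against 3.75% and 7.27% in the WT libraries. From position 22 to 25 the net starts were 0.0951% and 0.347% of all net starts in Dnmt2-/-, against 0.0627% and 0.574% in WT. At positions 26 to 36 there were none, because ends exceeded starts there. Summed over the tRNA, coverage per net start was 29.64 and 30.999 positions in the Dnmt2-/- libraries and 30.47 and 31.88 positions in the WT libraries. That figure is an upper limit on the mean length of the aligned fragments, since a start hidden by an end at the preceding position is not counted. Coverage does not link the start of a read to its end, so fragments from position 1 and from position 20 cannot be told apart by length.

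**Figure D2:**
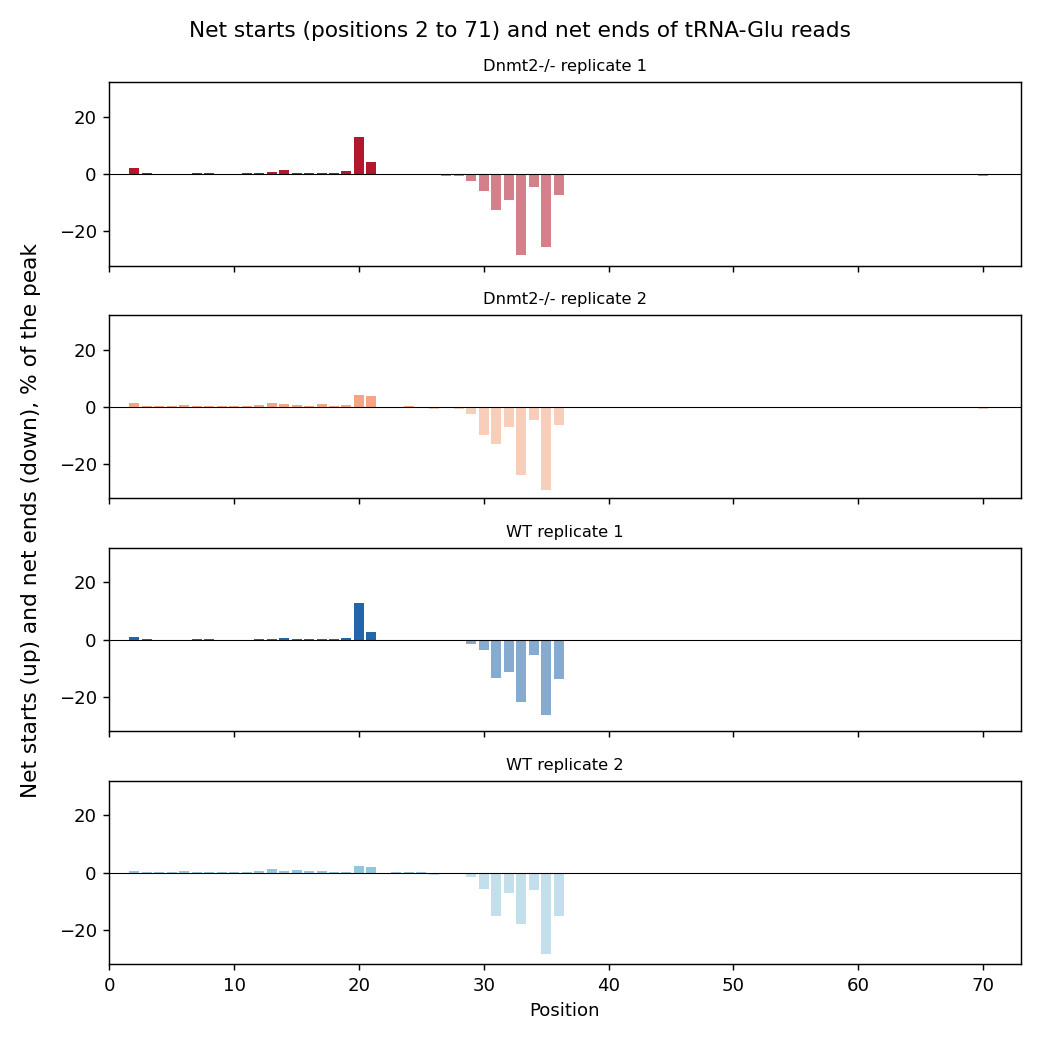
Net starts (bars above 0, positions 2 to 71) and net ends (bars below 0) of tRNA-Glu reads at each position, as a percentage of the peak, with 1 panel per library. Position 1 is left out of the upper bars for scale and held 75.2% to 87.3% of the peak. The starts at position 20 were higher in both libraries of number 1, and the ends after position 36 were fewer in both Dnmt2-/- libraries.

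The decline into the anticodon loop ran in steps, the largest of them, on average over the libraries, after positions 35 and 33. The loop is placed here by the usual layout of a tRNA, as the rows are not tied to the standard numbering. A fall in coverage counts, likewise, the reads that end at a position minus those that start at the next. After position 35 coverage dropped by 25.5% and 28.9% of the peak in Dnmt2-/- replicates 1 and 2, and by 26.3% and 28.5% in WT replicates 1 and 2. At this step the genotypes overlapped. After position 33 it dropped by 28.3% and 23.7% in the Dnmt2-/- libraries, and by 21.9% and 17.9% in the WT libraries. Both Dnmt2-/- libraries lost more here than both WT libraries, with a ratio of 1.29 in number 1 and 1.32 in number 2. Next in size, on average over the libraries, was the drop after position 31, by 12.4% and 13.1% in Dnmt2-/- and by 13.2% and 15.2% in WT.

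The end of the decline differed most between the genotypes. After position 36 coverage dropped by 7.26% and 6.45% of the peak in Dnmt2-/- replicates 1 and 2, and by 13.7% and 15.1% in WT replicates 1 and 2. The mean was 6.86% ± 0.568 in Dnmt2-/- and 14.4% ± 0.989 in WT (SD, n = 2 each), and the ratio within number 1 and 2 was 0.529 and 0.427. After position 30 the order was the opposite one. There the drop was 6.07% and 9.67% in the Dnmt2-/- libraries and 3.59% and 5.75% in the WT libraries, with ratios of 1.69 and 1.68 within the numbers. After position 34 the drop was 4.66% and 4.43% in Dnmt2-/-, against 5.30% and 5.96% in WT. After position 29 it was 2.62% and 2.64% in Dnmt2-/-, against 1.60% and 1.42% in WT. Among the steps named here, the drops after positions 29, 30 and 33 were thus larger in both Dnmt2-/- libraries than in either WT library. Those after positions 31, 34 and 36 were smaller. These drops are parts of 1 decline, so they are not separate observations. How often steps of other families separate the genotypes in this way was not computed.

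Weighted by the net losses after positions 26 to 37, the mean end position was 33.07 and 32.98 in Dnmt2-/- replicates 1 and 2, and 33.39 and 33.37 in WT replicates 1 and 2. The mean was 33.02 ± 0.0630 in Dnmt2-/- and 33.38 ± 0.0130 in WT (SD, n = 2 each). The difference of −0.36 positions was larger than the spread within either genotype. Without any 1 library it stayed between −0.41 and −0.32. Coverage crossed 50% of the peak at position 33.6 and 33.7 in the Dnmt2-/- libraries of number 1 and 2, and at 33.9 and 34.1 in the WT libraries, by linear interpolation. It crossed 20% at 35.6 in both Dnmt2-/- libraries and at 35.8 and 35.9 in the WT libraries. The crossings of 50% and 20% came earlier in both Dnmt2-/- libraries than in either WT library. At 80% the genotypes overlapped, with 31.78 and 31.44 in Dnmt2-/- and 32.04 and 31.73 in WT. The difference at 50% was −0.35 positions, −0.22 without WT replicate 2 and −0.86 when the level was set against the median of positions 10 to 25 in place of the peak.

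Coverage remaining at position 36 was 9.59% (95% interval 9.32 to 9.88) and 8.76% (8.54 to 8.98) of the peak in Dnmt2-/- replicates 1 and 2. In WT replicates 1 and 2 it was 15.7% (15.4 to 15.9) and 16.2% (16.0 to 16.4). These values rest on 4133 and 5663 reads in Dnmt2-/- and on 15214 and 20611 reads in WT. The intervals describe the counting of reads alone, and not the spread between libraries of a genotype. Position 36 was picked by its values in these libraries, so the gap is given as a description. At position 37 the order turned, with 2.34% and 2.30% in Dnmt2-/- and 1.95% and 1.13% in WT.

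Position by position, the shares were compared with limma across all 1656 positions with coverage. The value at each position was its share of the family's coverage, which is free of the scaling constant of a library. No position of any family passed an adjusted p of 0.05 (0 of 1656, or 0%), and 58 positions had an unadjusted p under 0.05. Position 36 was the 1 position of tRNA-Glu among these and had the lowest estimate of the family. It held 0.323% and 0.282% of tRNA-Glu coverage in Dnmt2-/- replicates 1 and 2, and 0.513% and 0.509% in WT replicates 1 and 2. The log2 difference was −0.74 (SE 0.16, 95% limma interval −1.23 to −0.25, adjusted p = 0.959). This interval does not allow for picking the lowest of 71 estimates. Position 34 followed the same order, with a log2 difference of −0.22 (SE 0.14, limma adjusted p = 0.959). Neither position passed the threshold.

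**Figure D3:**
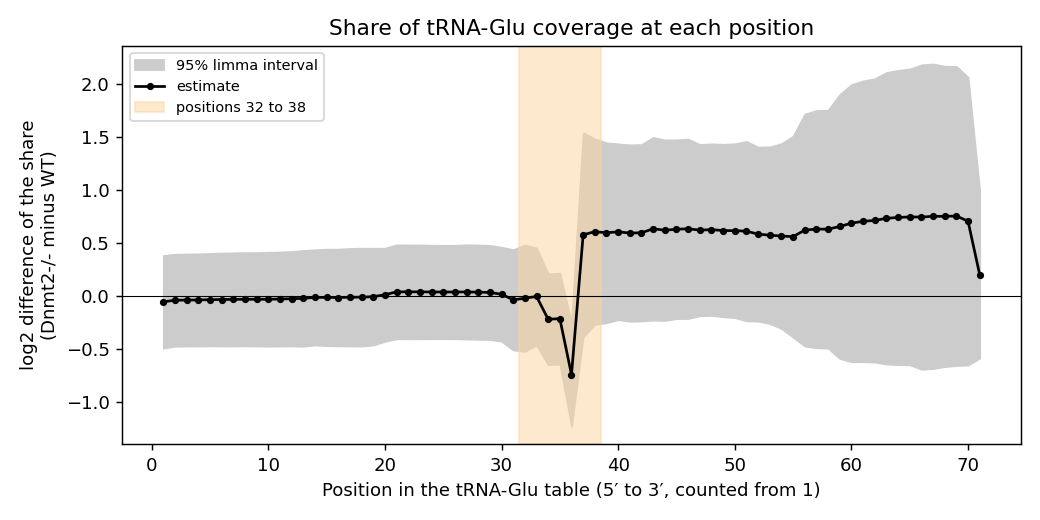
Difference between Dnmt2-/- and WT in the share of tRNA-Glu coverage at each of 71 positions, as log2 of the percentage plus 0.01, with the 95% limma interval in grey and positions 32 to 38 shaded. The estimate was −0.74 at position 36 and 0.76 at position 69, and no position passed the adjusted threshold.

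At 34 positions of tRNA-Glu, 37 to 70, both Dnmt2-/- libraries held a larger share than both WT libraries, and at 3 positions, 34 to 36, a smaller one. Over all positions of the 23 families the matching figures were 14.7% and 15.9%. Neighbouring positions share reads, so these 2 blocks amount to few independent observations. The median of the 71 estimates was 0.040, 46 being positive, against a median of −0.028 over all 1656 positions, of which 738 were positive. On the deposited scale 10 positions of tRNA-Glu lay above in both Dnmt2-/- libraries, where 17.1% of all positions did, and 0 lay below, where 0.302% did. The count of 0 past the limma threshold on that scale comes with 0 positions at an unadjusted p under 0.05.

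Little of tRNA-Glu was seen 3′ of the anticodon loop. From position 39 to the last, the 3′ remainder made up 1.802% and 1.923% of the coverage in Dnmt2-/- replicates 1 and 2, and 1.478% and 0.767% in WT replicates 1 and 2. The mean was 1.86% ± 0.0857 in Dnmt2-/- and 1.12% ± 0.503 in WT (SD, n = 2 each). Both Dnmt2-/- libraries lay above both WT libraries, as in 4 of 23 families (17.4%). The log2 odds difference was 0.82 (SE 0.69, 95% interval −0.58 to 2.21) and did not pass limma's test over 23 families (adjusted p = 0.892), and no other family did either (0%), with 0 families at an unadjusted p under 0.05. It was the second highest estimate of the 23, and it ranged from 0.34 to 1.29 when single libraries were left out, with the lowest value without WT replicate 2 and the highest without WT replicate 1. Counted from position 35 it was 0.19. The SE of 0.69 was a value that limma pooled over the families, and not the spread of tRNA-Glu alone.

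The remainder formed a low plateau. At position 50 coverage was 1.74% (95% interval 1.62 to 1.86) and 2.25% (2.13 to 2.36) of the peak in Dnmt2-/- replicates 1 and 2, from 748 and 1452 reads. In WT replicates 1 and 2 it was 1.48% (1.40 to 1.55) and 0.991% (0.937 to 1.05), from 1434 and 1258 reads. Position 47, the highest position beyond position 45 on average, held 1.76% and 2.33% in the Dnmt2-/- libraries, against 1.49% and 1.03% in the WT libraries. Net starts from position 37 onward were no more than 0.191% of all net starts in any library. Starts at positions 26 to 37 stay hidden where more reads end just before them. How many 3′ fragments begin there thus cannot be told from coverage.

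Towards the 3′ end the plateau sank in all 4 libraries, and furthest in WT replicate 2. Coverage at position 69 was 58.2% and 56.5% of that at position 37 in Dnmt2-/- replicates 1 and 2, 57.3% in WT replicate 1 and 33.4% in WT replicate 2. Position 69 had the largest estimate of the family in the share fit, a log2 difference of 0.76 (SE 0.46, limma adjusted p = 0.959). Its reads numbered 586 and 842 in the Dnmt2-/- libraries and 1085 and 479 in the WT libraries, and the estimate was 0.21 without WT replicate 2. At position 70 coverage was still 1.18% and 1.10% of the peak in Dnmt2-/- replicates 1 and 2, and 0.972% and 0.328% in WT replicates 1 and 2. At position 71, the last, it was 0.302% and 0.436% in Dnmt2-/- and 0.384% and 0.198% in WT. In mature tRNAs a CCA tail follows the last encoded base, and the tables do not state whether they include it.

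Coverage was thus one-sided in every library. Positions 1 to 34 held 96.5% and 96.4% of it in Dnmt2-/- replicates 1 and 2, and 96.5% and 97.3% in WT replicates 1 and 2. The log2 odds difference of this 5′ share was −0.19 (SE 0.66, limma adjusted p = 0.928). It was −0.81 for positions 1 to 37 and −0.010 for positions 1 to 30, −0.37 without WT replicate 1 and −0.0095 without WT replicate 2. Positions 32 to 38, around the anticodon in the usual tRNA layout, held 7.90% and 7.46% in the Dnmt2-/- libraries and 8.47% and 8.10% in the WT libraries. Both Dnmt2-/- libraries were the lower ones, as in 8 of 23 families (34.8%), and the log2 odds difference was −0.12 (SE 0.22, limma adjusted p = 0.876). It was −0.23 for positions 34 to 40 and −0.073 without Dnmt2-/- replicate 2. No family passed in either measure (0% in both). One family, not tRNA-Glu, had an unadjusted p under 0.05 for the loop share, and none for the 5′ share.

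tRNA-Glu was the second most covered family in all 4 libraries, after tRNA-Gly-GCC, a rank known when it was chosen and given as a description. Its share of all tRNA coverage was 15.3% and 29.6% in Dnmt2-/- replicates 1 and 2, and 22.2% and 38.1% in WT replicates 1 and 2. The share was lower in the Dnmt2-/- library of each number, with ratios of 0.688 and 0.776, while the genotypes overlapped. The mean was 22.4% ± 10.1 in Dnmt2-/- and 30.2% ± 11.3 in WT (SD, n = 2 each). The log2 odds difference of −0.61 was the lowest of the 23 families but had an SE of 0.63 and a 95% interval of −1.88 to 0.67 (limma adjusted p = 0.992). It was 0.0035 without Dnmt2-/- replicate 1 and −0.052 without WT replicate 2, against −1.22 without Dnmt2-/- replicate 2 and −1.16 without WT replicate 1. No family passed (0%), and none had an unadjusted p under 0.05. The SE was the same in all 23 families, because limma pooled the variance over them, so it is not the spread of tRNA-Glu alone. Shares of a library sum to 100%, so a family can move because another one does, and in bulk tissue fewer cells of a type and less RNA per cell cannot be told apart.

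On the deposited scale the summed coverage of tRNA-Glu was 16.8 and 56.3 units in the Dnmt2-/- libraries of number 1 and 2, and 19.5 and 54.7 units in the WT libraries. The log2 difference was −0.086 (SE 0.95, limma adjusted p = 0.973), and 0% of families passed. It became 0.79 without Dnmt2-/- replicate 1 and 0.66 without WT replicate 2, against −0.96 without Dnmt2-/- replicate 2 and −0.83 without WT replicate 1. It was −0.45 with libraries rescaled to one total, −0.53 with one median family and −0.047 for the peak in place of the sum, and it depends on a constant per library that no label explains.

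Both genotypes gave more tRNA-Glu in the libraries of number 2 than in those of number 1. In the share of all tRNA coverage number 2 exceeded number 1 by 1.17 on the log2 odds scale (SE 0.35, 95% interval 0.44 to 1.89, limma adjusted p = 0.00992). In the same test 12 of 23 families (52.2%) passed, and tRNA-Gly-GCC was at −1.11. The call for tRNA-Glu was lost without Dnmt2-/- replicate 1 (adjusted p = 0.229, log2 odds difference 0.83) and with tRNA-Gly-GCC left out of the total (adjusted p = 0.281, log2 odds difference 0.64). The deposited total differed by 1.62 on the log2 scale (SE 0.49, limma adjusted p = 0.00481), as 15 of 23 families passed (65.2%). This SE was also pooled, with the same value in tRNA-Glu, tRNA-Gly-GCC, tRNA-Lys, tRNA-His and tRNA-Val. That call was lost without Dnmt2-/- replicate 1 (adjusted p = 0.125, log2 difference 1.51) and without WT replicate 1 (adjusted p = 0.125, log2 difference 1.73), where 0 families passed. With libraries rescaled to one median family it was −0.086 (adjusted p = 0.826). What a replicate number stands for is not stated in the labels.

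**Figure D4:**
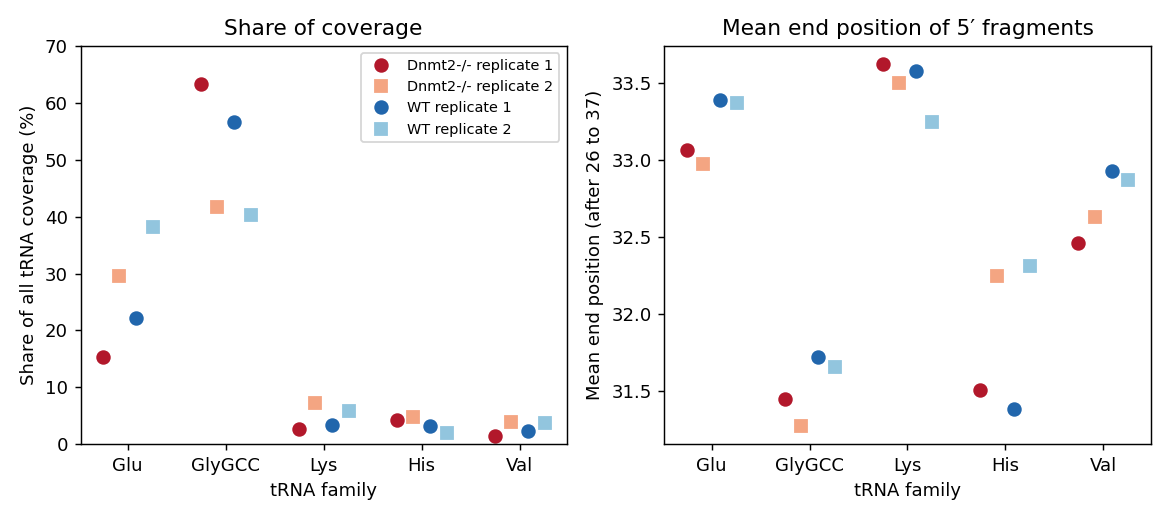
Share of all tRNA coverage (left) and mean end position, weighted by the net losses after positions 26 to 37 (right), in tRNA-Glu and the 4 other families often seen as 5′ fragments, with 1 point per library (Dnmt2-/- red, WT blue, number 1 circles, number 2 squares). The right axis does not start at 0. For tRNA-Glu the shares moved with the number, and the mean end position averaged 33.02 in Dnmt2-/- and 33.38 in WT.

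In the form of its profile tRNA-Glu was, on average over the libraries, most like tRNA-Gly-GCC, the other glycine tRNAs and tRNA-His. Likeness was measured as the sum over positions of the smaller of the shares of 2 families, averaged over the 4 libraries. It was 92.8% with tRNA-Gly-GCC, 91.97% with the non-GCC glycine tRNAs and 91.8% with tRNA-His. The order changed with the library, with tRNA-Lys highest in Dnmt2-/- replicate 1 (93.6%) and tRNA-His in WT replicate 1 (92.2%). For comparison, the tRNA-Glu profiles of 2 libraries overlapped by 95.8% to 98.7%.

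The families differed in where the reads began and ended. Coverage at position 1 was 75.2% to 87.3% of the peak in tRNA-Glu, 90.3% to 98.0% in tRNA-Gly-GCC, 93.3% to 96.2% in tRNA-Lys, 94.3% to 96.6% in tRNA-Val and 53.6% to 83.9% in tRNA-His. Starts at positions 20 and 21 made up 4.10% to 17.2% of all net starts in tRNA-Glu and 0.0237% to 0.0767% in tRNA-Gly-GCC. They made up 4.89% to 7.47% in tRNA-Lys, 5.22% to 10.999% in tRNA-His and 0.125% to 0.569% in tRNA-Val. The tRNA-Glu range thus lay apart from those of tRNA-Gly-GCC and tRNA-Val and overlapped those of tRNA-Lys and tRNA-His. These ranges compare families within the same 4 libraries and were not tested.

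Coverage reached 50% of the peak at position 33.64 to 34.12 in tRNA-Glu, 31.99 to 32.27 in tRNA-Gly-GCC, 31.6 to 32.2 in tRNA-His, 31.8 to 32.5 in tRNA-Val and 33.1 to 33.8 in tRNA-Lys. The drop after position 36 was 6.45% to 15.1% of the peak in tRNA-Glu and 9.41% to 17.02% in tRNA-Lys, and at most 0.0826% in tRNA-Gly-GCC, 0.588% in tRNA-His and 4.71% in tRNA-Val. Tables of different length need not number the same base alike.

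The mean end position was lower in both Dnmt2-/- libraries than in either WT library in tRNA-Glu, tRNA-Gly-GCC and tRNA-Val, while the genotypes overlapped in tRNA-Lys and tRNA-His. In tRNA-Gly-GCC it was 31.45 and 31.27 in Dnmt2-/- replicates 1 and 2, and 31.72 and 31.65 in WT replicates 1 and 2. In tRNA-Val it was 32.46 and 32.63 in the Dnmt2-/- libraries, against 32.93 and 32.87 in the WT libraries. In tRNA-Lys it was 33.63 and 33.499 in Dnmt2-/-, against 33.58 and 33.25 in WT. In tRNA-His it was 31.502 and 32.25 in Dnmt2-/-, against 31.38 and 32.31 in WT. The difference of means was −0.36 positions in tRNA-Glu, −0.33 in tRNA-Gly-GCC, −0.35 in tRNA-Val, 0.15 in tRNA-Lys and 0.031 in tRNA-His. Whether the families differ in this was not tested. Beyond these families the mean end position was not computed, so no share of families that separate the genotypes can be set beside it.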

How the data were processed

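Small RNA of bone marrow from 2 Dnmt2-/- and 2 WT libraries was sequenced. Per the labels' protocols, Trizol was used for total RNA, DNase I against DNA, and T4 polynucleotide kinase to repair RNA ends, and libraries were size-selected at 120 to 170 base pairs, which bounds the fragment lengths seen. The tools were CASAVA 1.8.3 and Bowtie, per the submitters' processing notes. Not given in the sources used here are the alignment settings, the genome build and the handling of reads that match several genes. The authors deposited signal, per the file headers coverage by library and strand, with an unexplained constant per library. All values above 0 (100%) were whole multiples of a step, within 0.01 of a step. A floor of 3 reads is 1.97e-05 to 8.41e-05 deposited units.

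The whole-glycine table is the sum of its parts and was left out. limma 3.58.1 (R 4.3.3) was run on log2 values over 23 families or 1656 positions with genotype as the sole term, two-sided, with Benjamini-Hochberg adjustment at 0.05. Pseudocounts were 0.001 for totals and for both sides of the odds, 1e-04 for deposited positions and 0.01 for percentages, so fold changes of low values are understated. Python 3.11.15 and SciPy 1.17.1 gave the remaining values, and scripts were tested on simulated data. Named are tRNA-Glu, 4 other families often seen as 5′ fragments, the 3 families of most like profile, and positions picked by size of gain, loss, level or estimate. Other positions are named to complete the decline or the plateau, chosen after their values were seen. Members, windows, lists and rules were chosen with earlier results of these data known. Alternatives were single libraries left out, the replicate number as a block, other pseudocounts, filters, scalings and windows.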

Additional observations from a re-analysis of the deposited data

How the results depend on the processing

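Of the comparisons by genotype, tRNA-Glu passed the threshold in none of the alternatives run, the replicate block included. Leaving out single libraries, the log2 difference ran from −0.96 to 0.79 for the family total and from −1.22 to 0.0035 for the share of all tRNA coverage. For positions on the deposited scale it ran from −1.04 to 0.76 at position 1, −1.02 to 0.77 at position 2, −0.91 to 0.77 at position 20, −0.88 to 0.79 at position 21, −0.89 to 0.79 at position 25, −0.90 to 0.69 at position 32, −1.19 to 0.58 at position 34 and −0.38 to 1.70 at position 47. As shares of the family it ran from −0.019 to 0.045 at position 20 and from −0.097 to 0.058 at position 32, while position 36 kept to −0.84 to −0.64. As percent of the peak, an alternative chosen after seeing the data like those for starts, ends and replicate numbers, position 20 was at −0.026. With the replicate number as a block, the adjusted p of tRNA-Glu was 0.841 for the total, 0.427 for the share, 0.332 for the 3′ remainder and 0.538 at position 36. Under the block 2 families passed for the total and 1 for the loop share, tRNA-Glu not among them. Same-numbered libraries deviated together (r = 0.86 over 23 families, which are not independent replicates), but the labels do not say that numbers pair animals. The authors deposited the coverage grouped by number, with both genotypes in each group. For the family total the SE of tRNA-Glu was 0.34 with the block, against 0.95 without it. The difference between numbers ran from 1.51 to 1.73 for the total and from 0.83 to 1.496 for the share without single libraries, with 0 to 17 and 0 to 16 families passing. It was −0.086 with one median family (5 families passing) and 0.64 without tRNA-Gly-GCC (2 families passing). The half-decline difference was −0.86 positions against the median of positions 10 to 25, in place of −0.35 against the peak. Beyond fewer libraries or another scaling, the cause of these turns was not tested.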
